A study of Danio rerio and Xenopus laevis and Xenopus tropicalis with 8 samples.

Results

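The cells described here were 552 of 6847 single cells of zebrafish embryos at the shield stage, 6 h after fertilization, in which msgn1, mespaa and mespab together had at least 5 counts. A cell was a barcode with at least 150 genes in the labeled and at least 150 genes in the unlabeled count matrix, and the labeled and unlabeled counts of the rule genes were added. These msgn1/mesp cells made up 8.06% of all cells (exact binomial 95% interval 7.43 to 8.73%, which covers counting error only), and they were set against the 6295 other cells. The embryos were AB wild type, all had been injected with 4-thiouridine triphosphate (4sUTP) after fertilization, and cells of embryos without 4sUTP were not analysed here. They were pooled, dissociated, fixed in methanol and loaded as 1 droplet library. In this assay, scSLAM-seq, the uridine analogue enters RNA made after the injection, and a chemical conversion then lets it be read as cytosine, so that each molecule, counted by its unique molecular identifier (UMI), is sorted as labeled or unlabeled. With 1 library there is no replicate of the embryos, and all intervals below cover counting error only. Levels at the one-cell stage were taken from 3 embryos that had been cut into sections and sequenced by tomo-seq.

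Msgn1 encodes a basic helix-loop-helix transcription factor of the presomitic mesoderm, and the mesp genes encode related factors with a role in the formation of somite borders. At the shield stage the future paraxial mesoderm lies at the margin of the blastoderm, where the cells turn inward beneath the ectoderm. Nodal, Fgf and Wnt signals set up this tissue and T-box factors such as Tbx16 and Tbxta act in it. Its derivatives form somites through a clock of oscillating her genes that is coupled between neighbouring cells by Delta and Notch. The axial mesoderm on the dorsal side instead forms the prechordal plate and notochord.

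The rule genes are given as a description, since they chose the cells. Msgn1 (ENSDARG00000070546, chromosome 4 in GRCz10) had a count in 88.4% of the msgn1/mesp cells and in 7.37% of the other cells. Mespaa (ENSDARG00000017078, chromosome 7) had one in 65.8% of the msgn1/mesp cells and in 3.53% of the other cells, and mespab (ENSDARG00000068761, chromosome 25) in 97.8% of the msgn1/mesp cells and in 12.3% of the other cells. Of the 552 cells, 486 had msgn1 together with a mesp gene, 64 had a mesp gene alone and 2 had msgn1 alone. The summed rule counts had a median of 8, with 5 and 14 as the 10th and 90th percentiles and 25 as the largest value. No gap separated the cells from the rest. There were 112 cells with a sum of 5 and 83 with a sum of 6, next to 123 cells with a sum of 4 and 152 with a sum of 3, while 5188 cells (75.8%) had no count of these genes. No barcode outside the 6847 cells reached a sum above 4.

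**Figure D1:**
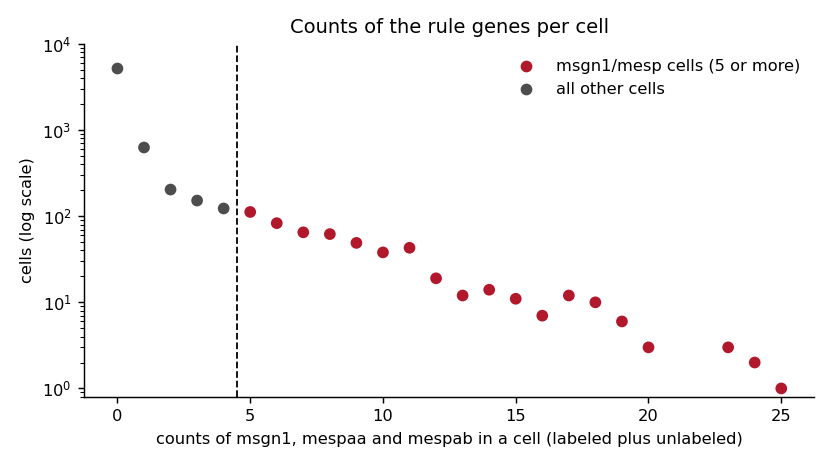
Number of cells (log scale) against the summed labeled and unlabeled counts of msgn1, mespaa and mespab in a cell, with the msgn1/mesp cells right of the dashed line. The number of cells falls off without a gap at the threshold, with 112 cells at a sum of 5 and 123 cells at a sum of 4.

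A rule on counts takes deeper cells. The msgn1/mesp cells had a median of 3638.5 counts, against 2931 in the other cells, with 1466 labeled counts in the msgn1/mesp cells against 1110 in the other cells, and 2095 unlabeled counts against 1747. All levels below are therefore counts summed over the cells of a group and scaled to the same total, as CPM, with the rule genes left out of the totals. The calls changed in part when the other cells were weighted to the depth of the msgn1/mesp cells. Then 203 in place of 141 genes were lower in unlabeled RNA (136 shared) and 257 in place of 236 in labeled RNA (231 shared), against 19 and 127 higher genes. Such weights may also change the kinds of cells that make up the other group, and the part of depth in these changes was not tested. Labeled RNA made up 41.96% of the counts in the median msgn1/mesp cell and 40.08% in the median other cell, with 10th to 90th percentiles of 34.5 to 47.9% and 27.7 to 48.4%. Among cells of the same range of total counts the medians were 41.87% in 440 msgn1/mesp cells and 41.04% in 3986 other cells. The small surplus of labeled RNA was thus well within the spread between cells. Mitochondrial genes took a median of 5.30% of labeled counts in msgn1/mesp cells and 5.52% in other cells, and ribosomal protein genes 19.3% in msgn1/mesp cells and 18.9% in other cells. In unlabeled counts the medians were 3.48% in msgn1/mesp cells and 2.89% in other cells for mitochondrial genes, and 10.5% in msgn1/mesp cells and 9.71% in other cells for ribosomal protein genes.

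The label of the cells was set beside aldh1a2 and efnb2a, the markers of non-axial mesoderm that the rule did not use. These markers had been chosen with earlier results of these data known, so their levels are a description and no independent check. Aldh1a2 (ENSDARG00000053493, chromosome 7), the main enzyme of retinoic acid synthesis in mesoderm, had 348 labeled counts or 390 CPM in msgn1/mesp cells and 293 labeled counts or 38.6 CPM in other cells, a fold of 10.1 (95% interval 8.63 to 11.9). Efnb2a (ENSDARG00000020164, chromosome 9), a membrane-bound ligand of Eph receptors, had 435 CPM in msgn1/mesp cells and 75.7 CPM in other cells, a fold of 5.74 (5.04 to 6.54). Both genes were at 3.12 and 12.5 CPM in the 137 other cells with the largest share of enveloping layer genes, a tissue that should lack them. In barcodes with at most 20 counts, which hold RNA from outside the cells, they were at 87.7 and 78 CPM.

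The share of cells with a count was compared after each cell had been thinned to 800 labeled counts, which left out 35 msgn1/mesp cells and 1865 other cells that were shallower. Aldh1a2 was then found in 26.5% of msgn1/mesp cells (22.7 to 30.5%), in 2.89% of other cells and in 0 of 107 enveloping layer cells, which allows a share of up to 2.80%. Efnb2a was found in 32.1% of msgn1/mesp cells (28.1 to 36.3%), in 5.26% of other cells and in 0.935% of enveloping layer cells. Before thinning the shares were 45.3% and 47.6% of msgn1/mesp cells for aldh1a2 and efnb2a, against 3.94% and 7.15% of other cells. At this depth each gene alone was thus missing in most msgn1/mesp cells. The summed level of both genes was 7.24 per 10000 labeled counts in the median msgn1/mesp cell and 0 in the median other cell, and before thinning 30.1% of msgn1/mesp cells and 89.5% of other cells had none.

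Markers of other tissues were summed in the same way over labeled RNA. The neuroectoderm list was at 607 CPM in msgn1/mesp cells and 1847 CPM in other cells, and the enveloping layer list at 651 CPM in msgn1/mesp cells and 3391 CPM in other cells. The endoderm list was at 581 CPM in msgn1/mesp cells and 662 CPM in other cells. The ventral mesoderm list was higher, at 6419 CPM in msgn1/mesp cells and 4269 CPM in other cells, and so was the axial mesoderm list, at 1867 CPM in msgn1/mesp cells and 1114 CPM in other cells. The axial list was divided within itself, with 3 of 11 tested genes higher and 5 lower, against 2.26% and 4.42% over all genes. Noto, the notochord homeobox gene, had 39.2 CPM in msgn1/mesp cells and 190 CPM in other cells (fold 0.21). Gsc, the organizer homeobox gene, had 22.4 CPM in msgn1/mesp cells and 81.3 CPM in other cells (fold 0.28). Foxd3, nog1 and frzb were also lower, while tbxta, foxa and dkk1b were higher in msgn1/mesp cells. Thus noto and gsc were low in the cells as their non-axial label says, and tbxta, foxa and dkk1b were not. Of the 552 cells, 21 (3.80%) also met a rule of 5 counts for chordamesoderm (noto and chrd), ventral margin (eve1 and szl), neuroectoderm (sox2, sox3 and otx2b) or endoderm (sox17 and sox32). These cells had a median of 6157 counts, and 5.85% of other cells met such a rule. Whether they were pairs of cells in 1 droplet was not tested.

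Across the genome, a gene with at least 100 labeled counts over all cells was called higher or lower when its pooled level differed at least 2-fold and the exact Poisson intervals of both levels did not overlap. Of 5343 genes, 121 (2.26%) were called higher in the msgn1/mesp cells and 236 (4.42%) lower, with a median log2 fold of -0.04 over all genes. In unlabeled RNA, 19 of 5316 genes (0.357%) were called higher and 141 (2.65%) lower, with a median of -0.12. Without replicates these calls describe the cells of this pool of embryos and are no test.

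**Figure D2:**
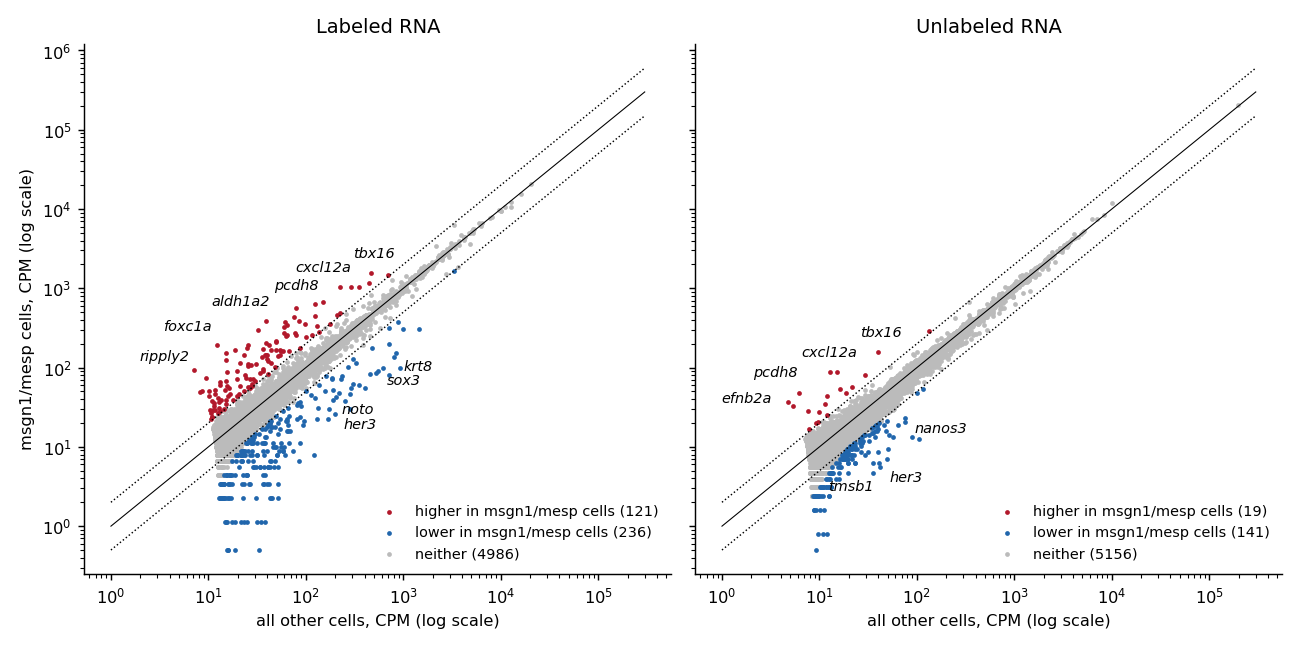
Pooled level of each gene in msgn1/mesp cells against all other cells (CPM, both axes on a log scale) in labeled RNA on the left and unlabeled RNA on the right. Colored points are called higher or lower, the solid line marks equal levels, the dotted lines 2-fold, and genes without a count in the msgn1/mesp cells are drawn at 0.5 CPM. Labeled RNA has 121 genes above and unlabeled RNA has 19.

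Among the 15 tested genes of a list for paraxial mesoderm, 13 were higher in labeled RNA and none was lower, against 2.26% and 4.42% over all genes. The median log2 fold was 2.23. This list had been chosen with results of these cells known. Foxc1a and ripply2 had the largest folds of the 121 genes. Foxc1a, a forkhead factor that somite formation needs, had 193 CPM in msgn1/mesp cells and 12.2 CPM in other cells, a fold of 15.7 (12.2 to 20.5). Ripply2, a corepressor adaptor that limits T-box activity at somite borders, had 94.1 CPM in msgn1/mesp cells and 7.11 CPM in other cells, a fold of 13.2 (9.29 to 19), and ripply1 had 134 CPM in msgn1/mesp cells and 35.7 CPM in other cells. Mespba, which is a neighbour and paralog of mespaa, had 73.9 CPM in msgn1/mesp cells and 9.47 CPM in other cells, and reads of these paralogs may have been divided between them. The homeobox genes mixl1 and sebox, which act downstream of Nodal, were 4.05-fold and 3.82-fold higher, and osr1, a zinc finger gene of lateral and intermediate mesoderm, was 4.67-fold higher. Of the list, apoc1 (fold 1.90) and the integrin subunit itga5 (fold 1.35) were below the threshold.

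T-box genes were among the most widely detected. Tbx16, which cells of the trunk mesoderm need to move inward, had 1563 CPM in msgn1/mesp cells and 468 CPM in other cells, a fold of 3.34 (3.14 to 3.55), and after thinning it was found in 71.8% of msgn1/mesp cells, 28.6% of other cells and 1.87% of enveloping layer cells. Tbx16l, also called tbx6l, had 167 CPM in msgn1/mesp cells and 18.8 CPM in other cells (fold 8.87). Tbxta, the zebrafish Brachyury gene, had 1052 CPM in msgn1/mesp cells and 351 CPM in other cells (fold 3.0), and after thinning it was found in 49.5% of msgn1/mesp cells and 18.3% of other cells. The fold of tbx16l was thus larger than those of tbx16 and tbxta, which were also found in many other cells.

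Other transcription factors of mesoderm and endoderm were higher too. Gata5, which acts in the endoderm and the heart field, had 213 CPM in msgn1/mesp cells and 49.8 CPM in other cells (fold 4.28). The zinc finger gene drl, an early gene of the lateral plate, had 145 CPM in msgn1/mesp cells and 23.4 CPM in other cells (fold 6.17), and drll.1, drll.2 and drll.3 had folds of 7.50, 4.58 and 4.06. These 4 genes lie side by side and resemble each other, so that their counts may not be fully apart. Zic2a was 5.41-fold higher and foxa 3.79-fold, whereas zic2b, a zinc finger gene of the same family as zic2a, was 0.37-fold. The homeobox genes vent, vox and ved, which repress dorsal fates, had folds of 1.92, 1.35 and 1.59 and were below the threshold, as was cdx4 at 1.70, while the homeobox gene eve1 reached 2.01.

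Genes of the somite clock and of Delta signaling were present at the shield stage, well before the first somite. Her1, an oscillating repressor, had 90.7 CPM in msgn1/mesp cells and 19.9 CPM in other cells, a fold of 4.57 (3.44 to 6.02). Hes6, its partner, had 1151 CPM in msgn1/mesp cells and 441 CPM in other cells (fold 2.61), and her7 had 315 CPM in msgn1/mesp cells and 158 CPM in other cells, a fold of 1.99 that was just under the threshold. The ligand genes dld and dlc had folds of 3.55 and 2.73. Lfng, which modifies Notch, and the receptor gene notch3 were lower, with folds of 0.32 and 0.43. Of 15 tested Notch and clock genes 4 were higher and 2 lower, against 2.26% and 4.42% over all genes (median log2 fold 0.50). Dld, dlc, her1 and hes6 were thus higher in the cells, while notch3 and lfng were lower. Outside the list her3 (0.13) and her8a (0.17) were lower, with her8a named after its value was seen.

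Of 14 tested Nodal pathway genes 6 were higher and 3 lower (median log2 fold 0.44), against 2.26% and 4.42% over all genes. Lft1, a secreted Nodal inhibitor, had 297 CPM in msgn1/mesp cells and 32.6 CPM in other cells, a fold of 9.09 (7.62 to 10.9), and acvr1ba, a Nodal receptor subunit, was 2.53-fold higher, while lft2 was 0.46-fold and foxh1, the DNA-binding partner of Smad2, was 0.38-fold. The Nodal ligand gene ndr2 had 27 counts in msgn1/mesp cells and 130 in other cells (fold 1.77), which did not reach the threshold.

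Of 14 tested Fgf pathway genes 4 were higher and 2 lower (median 0.28), against 2.26% and 4.42% over all genes. The ligand genes fgf17, fgf24 and fgf8a had folds of 6.04, 2.92 and 2.12, and il17rd, an inhibitor of the pathway, had 2.66, while the receptor gene fgfr4 and the inhibitor gene spred2a were lower, at 0.37 and 0.27. The Fgf target genes etv4, etv5b and dusp6 had folds of 1.01, 0.93 and 1.28. The ligands therefore differed between the groups and these targets did not reach the threshold.

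Of 16 tested Wnt pathway genes 5 were higher and 4 lower (median 0.52), against 2.26% and 4.42% over all genes. Wnt11f2, a ligand that guides cell movements in gastrulation, had 254 CPM in msgn1/mesp cells and 79.9 CPM in other cells (fold 3.18). Dkk1b, a secreted Wnt inhibitor known from the axial mesoderm, had 360 CPM in msgn1/mesp cells and 97.3 CPM in other cells (fold 3.70), and the target gene sp5a was 3.42-fold higher. Among the receptors, fzd10 and fzd7a had folds of 3.28 and 2.0, against 0.28 for fzd8a and 0.052 for fzd8b, and the other lower genes were frzb at 0.39 and tcf7l1a at 0.41. The receptor genes of this family thus fell on both sides.

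Of 8 tested genes of retinoic acid metabolism and signaling, only aldh1a2 and rdh10a were higher and none was lower (median -0.08). Over all genes 2.26% were higher and 4.42% lower. Rdh10a, which makes the substrate of Aldh1a2, had 88.5 CPM in msgn1/mesp cells and 15.4 CPM in other cells, a fold of 5.75 (4.26 to 7.71). Cyp26a1, which degrades retinoic acid, had a fold of 0.78, and the receptor genes raraa and rarab had 1.07 and 1.06. Rdh10b, the paralog of rdh10a, had 227 CPM in msgn1/mesp cells and 269 CPM in other cells, a fold of 0.85 (0.73 to 0.98) that was not called, so that the genes of the first step were not higher as a pair. The intervals of both receptor genes (0.55 to 1.92 and 0.64 to 1.68) included equal levels.

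Of 18 tested Bmp pathway genes none was higher and 4 were lower (median 0.20), against 2.26% and 4.42% over all genes. With 18 genes, none higher does not set the list apart from that share. The lower genes were id1 (fold 0.49), msx1b (0.25), gata2a (0.21) and nog1 (0.41). The ligand genes bmp2b, bmp4 and bmp7a had folds of 1.96, 1.48 and 1.77, all under the threshold.

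Of 22 tested genes of movement, adhesion and guidance 12 were higher and 5 lower, against 2.26% and 4.42% over all genes. The median log2 fold was 1.48, and this list too had been chosen with results of these data known. Pcdh8, the paraxial protocadherin, had 499 labeled counts or 559 CPM in msgn1/mesp cells and 603 or 79.4 CPM in other cells, a fold of 7.04 (6.24 to 7.94), and after thinning it was found in 37.7% of msgn1/mesp cells, 5.28% of other cells and none of the enveloping layer cells. Snai1a, a repressor of epithelial cadherin genes, was 4.45-fold higher, cdh2, the N-cadherin gene, 3.25-fold, the transmembrane gene flrt3 5.44-fold, and has2, which makes hyaluronan, 4.89-fold. Cdh1, the E-cadherin gene, had a fold of 0.55.

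Ligands and receptors of guidance differed in opposite directions. The chemokine genes cxcl12a and cxcl12b had 1054 and 152 CPM in msgn1/mesp cells and 226 and 15.3 CPM in other cells, folds of 4.67 (4.31 to 5.06) and 9.98 (7.73 to 12.9). Their receptor genes cxcr4b and cxcr4a were lower, with 155 and 114 CPM in msgn1/mesp cells and 835 and 330 CPM in other cells, folds of 0.19 and 0.35. For Apelin signaling it was the reverse. The receptor genes aplnrb and aplnra had 177 and 146 CPM in msgn1/mesp cells and 24.9 and 39 CPM in other cells, folds of 7.11 and 3.74, whereas the ligand gene apela had 377 CPM in msgn1/mesp cells and 881 CPM in other cells, a fold of 0.43. Aplnra was also at 452 CPM in the enveloping layer cells. The cells thus had more ligand and less receptor RNA of the chemokine pair, and more receptor and less ligand RNA of the Apelin pair.

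**Figure D3:**
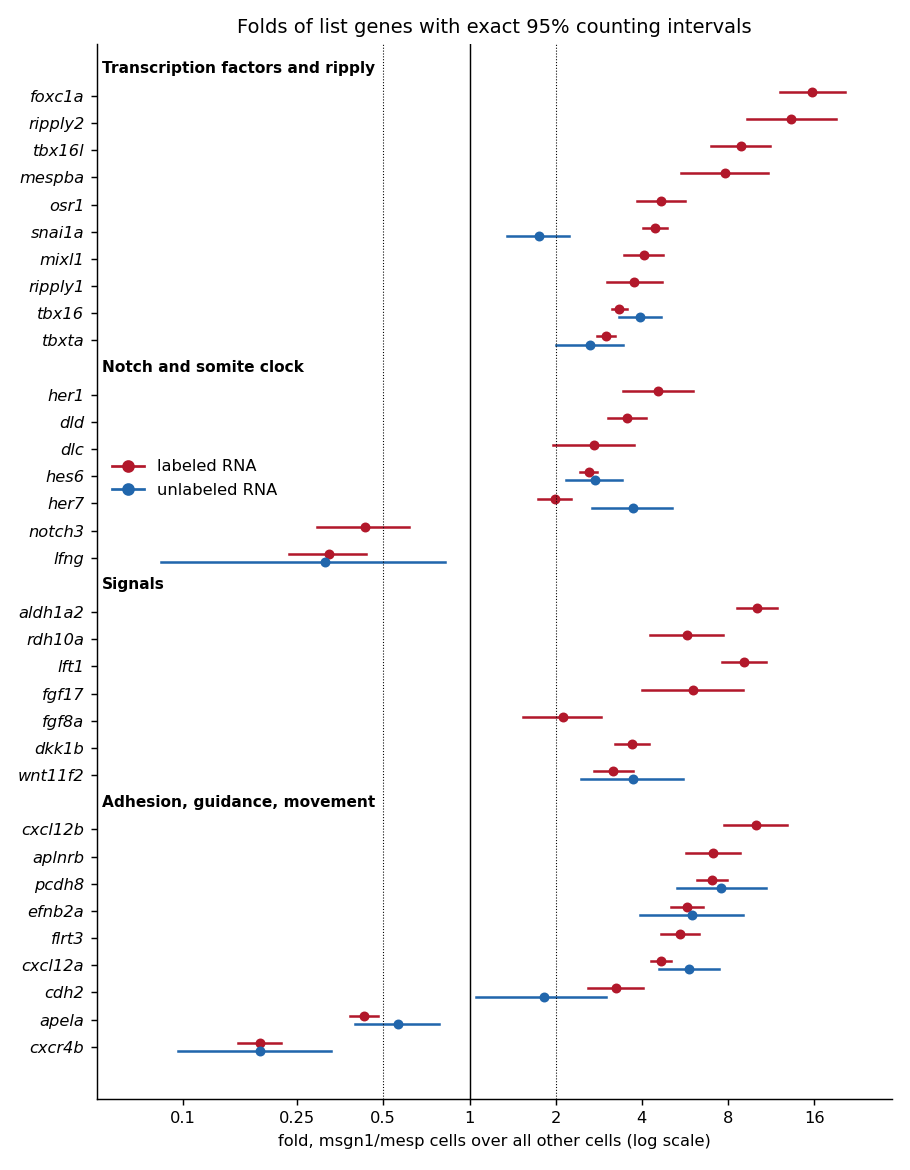
Fold of each gene in msgn1/mesp cells over all other cells (log scale) by role, in labeled RNA (red) and, where at least 100 unlabeled counts were found, in unlabeled RNA (blue). Bars are exact 95% counting intervals and dotted lines mark 2-fold. Ligand cxcl12b (9.98) and receptor cxcr4b (0.19) lie at opposite ends, as do receptor aplnrb (7.11) and ligand apela (0.43).

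The cell cycle list was close to equal in labeled RNA. Of 39 tested cell cycle genes none was higher and 1 was lower (ccna1, fold 0.43), against 2.26% and 4.42% over all genes. Their median log2 fold was -0.03, and pcna and mki67 had folds of 0.96 and 0.98. In unlabeled RNA none was higher and 2 were lower, against 0.357% and 2.65% over all genes, and the summed fold was 0.89 (0.87 to 0.91). Of 11 tested maternal transcription factors none was higher in labeled RNA, and foxh1 (0.38) and tcf7l1a (0.41) were lower, against 2.26% and 4.42% over all genes. With 11 genes, none higher does not set the list apart from that share. The summed unlabeled fold of that list was 0.76 (0.71 to 0.80). Other genes among the 20 largest folds were rbm38 (8.14), which encodes an RNA-binding protein, FP102169.1 (6.13), known here only by the name of its clone, the basement membrane gene nid2a (5.89) and tsku (5.48).

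All 13 tested enveloping layer genes were lower in msgn1/mesp cells, against 4.42% over all genes. Among them, krt8 had 137 CPM in msgn1/mesp cells, 810 CPM in other cells and 17334 CPM in enveloping layer cells. The 10 smallest folds in labeled RNA were all of genes at 296 CPM or more in enveloping layer cells. Of these, 5 had no count in msgn1/mesp cells, the lowest being si:dkey-16l2.20 with 251 counts in other cells, which makes it at least 9.83-fold lower at a floor of 3 counts over the group, and for zgc:153911, slc6a7, s100v2 and ano9b the bounds were 5.56, 4.74, 4.70 and 4.62. With the 137 enveloping layer cells left out of the other cells, a comparison chosen after seeing the data, 108 genes were lower, of which 98 were among the 236. None of the 13 enveloping layer genes was called lower any more, with krt8 and krt4 at folds of 1.65 and cyt1 higher at 2.15. Some of the 13 had too few counts left to be tested, namely krt17 (0.72), cyt1l (0.63), icn (0.78), anxa1c (3.19) and cldnf (1.63). The 5 genes without a count in msgn1/mesp cells also fell under the minimum. For such genes a lost call does not show equal levels. Leaving out cells chosen by the enveloping layer genes lowers the level of these genes in the remaining cells by construction. Cxcr4b (0.18), sox3 (0.16), her3 (0.13) and noto (0.20) were among the 98. Of the 121 higher genes, 116 remained higher.

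Most tested genes of the ectoderm lists were lower as well, against 4.42% over all genes. Of 7 tested neuroectoderm genes 5 were lower, sox3 with 91.8 CPM in msgn1/mesp cells and 544 CPM in other cells (fold 0.17), sox19a (0.14), sox2 (0.22), her3 (0.13) and zic2b (0.37), while otx2a had a fold of 1.13. Of 4 tested genes of the non-neural ectoderm foxi1, tfap2a and tfap2c were lower, at 0.30, 0.19 and 0.20, and 1 was not called. Bmp2b, also on this list, was above equal levels but under the threshold. The summed fold of the list was 0.60. Before thinning 80.8% of msgn1/mesp cells and 80.2% of other cells had no labeled count of it. Snai2 and pcdh18b, which belong to the movement list, were at 0.23 and 0.18. After thinning, sox3 was found in 4.26% of msgn1/mesp cells, 34.3% of other cells and 5.61% of enveloping layer cells, and noto in 2.71% of msgn1/mesp cells, 8.44% of other cells and 4.67% of enveloping layer cells. The shares of both genes in msgn1/mesp cells did not exceed those in the 107 enveloping layer cells, a tissue that should lack them, and so few counts do not tell expression from free RNA.

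**Figure D4:**
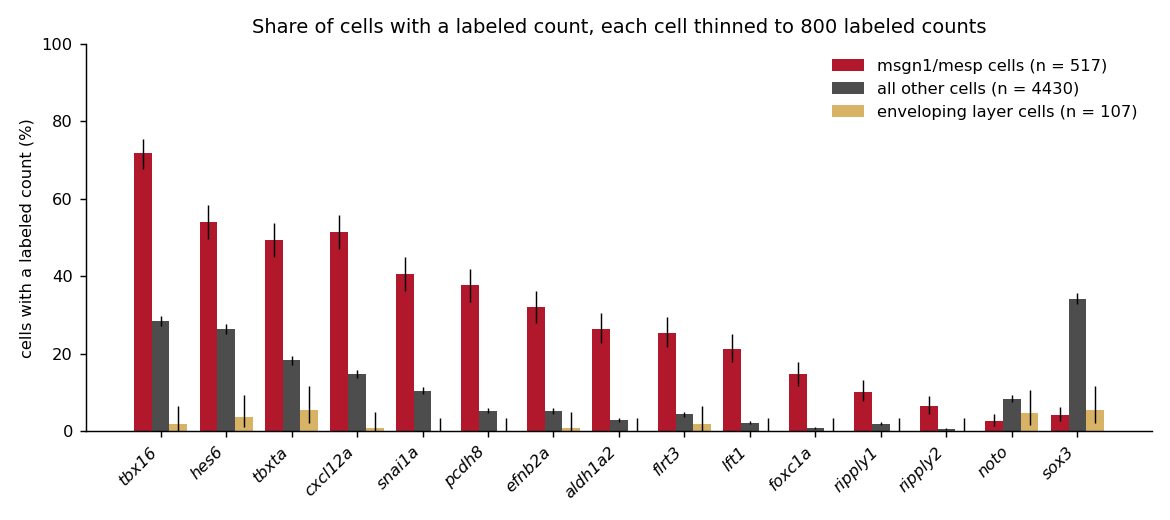
Share of cells with a labeled count of a gene after each cell was thinned to 800 labeled counts, in 517 msgn1/mesp cells, 4430 other cells and 107 enveloping layer cells, with exact binomial 95% intervals as bars. Tbx16 reaches 71.8% of msgn1/mesp cells, aldh1a2 26.5% and foxc1a 14.7%, while sox3 is found in 34.3% of the other cells and 4.26% of msgn1/mesp cells.

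Unlabeled RNA holds the RNA that the mother laid down and, since not every new molecule carries enough converted bases, a part of the RNA made by the embryo. Of the 19 genes that were higher in unlabeled RNA, 14 (73.7%) were also higher in labeled RNA, where they were 11.6% of the higher genes, and none was lower there. The largest unlabeled folds were those of FP102169.1 at 7.88 (5.23 to 11.9) and of pcdh8 at 7.58 (5.30 to 10.8). Pcdh8 had 60 unlabeled counts in msgn1/mesp cells and 73 in other cells. Pnhd, a secreted factor of early mesoderm, followed with 87.6 CPM in msgn1/mesp cells and 12.9 CPM in other cells (fold 6.78), then efnb2a (6.00), cxcl12a (5.86), tbx16 (3.95), wnt11f2 (3.73), her7 (3.72) and inka1b (3.08). Hes6, tbxta and foxa had unlabeled folds of 2.74, 2.64 and 2.57. Of the 8 paraxial list genes that were tested in unlabeled RNA, 4 were higher (pcdh8, efnb2a, tbx16 and hes6), against 0.357% over all genes. Snai1a had a fold of 1.74.

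Most genes that were higher in labeled RNA had too few unlabeled counts to be tested, and 42 of 121 had enough. Of these 42, 34 (81%) had an unlabeled fold above 1, with a median log2 fold of 0.74, against -0.10 over the genes tested in both. Her7 was higher in unlabeled RNA at 3.72 (2.67 to 5.10) and just under the threshold in labeled RNA at 1.99 (1.74 to 2.26). Nrarpa, a feedback inhibitor of Notch, was at 2.12 (1.31 to 3.29) in unlabeled RNA and 1.21 (0.97 to 1.49) in labeled RNA. Rbm38 showed the opposite, with 8.14 in labeled RNA and 1.38 (1.03 to 1.84) in unlabeled RNA.

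Among the 141 genes that were lower in unlabeled RNA, 40 (28.4%) were also lower in labeled RNA, where they made up 17%. All 8 tested enveloping layer genes were lower, and so were 5 of 8 tested genes of primordial germ cells, against 2.65% over all genes. These were nanos3 (fold 0.30), ca15b (0.29), dnd1 (0.42), buc (0.45) and tdrd7a (0.25), while ddx4 had 1.13. The germ cell list had a median of 4.74 per 10000 unlabeled counts in msgn1/mesp cells and 4.59 in other cells. No count of it was found in 34.2% of msgn1/mesp cells and 41.5% of other cells. The summed fold of the list was 0.74 (0.68 to 0.79). The medians amount to few counts per cell, and the cells were not thinned here although the msgn1/mesp cells were deeper. These values therefore do not tell whether the typical msgn1/mesp cell had less of this list. Whether a few of the other cells carried the pooled folds was not tested. Her3 (0.13), zic2b (0.18) and cxcr4b (0.19) were lower in both kinds of RNA. Si:ch73-141c7.1 had no unlabeled count in msgn1/mesp cells and 109 in other cells, which makes it at least 3.94-fold lower, and llgl1 had 1 count in msgn1/mesp cells and 139 in other cells (fold 0.066, 0.0017 to 0.38). Si:rp71-1n18.1, tmsb1, krt97, krt17 and zgc:193505, which were among the 10 smallest unlabeled folds, were at 268 CPM or more in the enveloping layer cells. Without those cells 119 of the 141 genes remained lower, and some of the rest, krt17 among them, had too few counts to be tested.

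The labeled share of a gene's counts was read beside its level at the one-cell stage. In the 3 one-cell stage embryos, which had 10215262, 12689395 and 31887460 counts, the 104 higher genes that were matched had a median of 1.78 CPM, and 51.9% of them reached 1 CPM, against a median of 45.5 CPM and 89.6% over all 4591 tested genes that were matched. The 183 matched genes that were lower in labeled RNA had a median of 1.86 CPM. The genes of both directions were thus mostly low at the one-cell stage. In the other cells the median labeled share was 88.3% for the higher genes, 85.8% for the lower genes and 59.6% for all tested genes.

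Aldh1a2, efnb2a, pcdh8, tbx16 and tbxta had labeled shares of 89.9, 90.4, 89.3, 87.4 and 92.9% in msgn1/mesp cells and 88.3, 90.1, 89.2, 88.3 and 91.4% in other cells, and all of them were below 0.4 CPM at the one-cell stage. For each of these genes the intervals of the labeled share overlapped between the groups. Genes with more RNA at the one-cell stage gave other values. Snai1a, at 70.8 ± 53.6 CPM (SD, n = 3) in one-cell embryos, was labeled to 88.8% (86.1 to 91%) in msgn1/mesp cells and to 74.1% (71.8 to 76.2%) in other cells. Foxa, at 10.4 ± 8.27 CPM (SD, n = 3), was labeled to 70.7% (64 to 76.8%) in msgn1/mesp cells and to 60.1% (55.9 to 64.2%) in other cells. Rbm38, at 228 ± 144 CPM (SD, n = 3), was labeled to 66.3% (58.5 to 73.4%) in msgn1/mesp cells and to 23.6% (19.9 to 27.6%) in other cells. Inka1b, which was at 55.5, 105 and 279 CPM in the 3 embryos, was labeled to 88.6% (85 to 91.6%) in msgn1/mesp cells and to 83.2% (80.4 to 85.7%) in other cells. The intervals of foxa and of inka1b overlapped slightly between the groups, and those of snai1a and rbm38 did not overlap. The one-cell means rested in part on embryo 3, without which they were 39.9 CPM for snai1a, 6.20 CPM for foxa and 80.1 CPM for inka1b. Nanos3 was labeled to 0 of 29 counts in msgn1/mesp cells (up to 11.9%) and to 2.84% in other cells.

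The msgn1/mesp cells were then divided by tbxta. The 397 cells with a tbxta count had a median of 3722 counts and the 155 cells without had 3344. Of 1296 genes tested in labeled RNA, 9 (0.694%) were higher and 12 (0.926%) lower in the cells with tbxta. Tbx16l had 198 CPM in cells with tbxta and 69.7 CPM in cells without (fold 2.84), dld 328 and 116 CPM (2.82), cdx4 421 and 158 CPM (2.66), apela 440 and 181 CPM (2.43) and nrarpa 139 and 32.5 CPM (4.27), and the Fgf target gene etv4 was 2.13-fold higher. Ripply1 had 81.2 CPM in cells with tbxta and 302 CPM in cells without, a fold of 0.27 (0.18 to 0.39), and foxa (0.44), irx7 (0.38), rnd1b (0.38), id3 (0.43) and insb (0.48) were also lower. So were lye (0.40), krt99 (0.42) and pfn1 (0.44), which were at 29193, 3260 and 19131 CPM in the enveloping layer cells, and the part of such RNA in this division was not tested. Efnb2a was at 353 CPM in cells with tbxta and 692 CPM in cells without, a fold of 0.51 (0.41 to 0.63), and cxcl12a at 871 and 1630 CPM (0.53, 0.47 to 0.61), both short of the threshold. Aldh1a2 had 392 and 381 CPM in cells with and without tbxta, pcdh8 540 and 618 CPM, and tbx16 1609 and 1421 CPM. The tbxta-bearing cells thus had more tbx16l, dld and cdx4 and less ripply1, at about equal aldh1a2. A cell without a tbxta count may still have expressed the gene, since the cells were shallow. With all cells thinned to 800 labeled counts, 645 genes could be tested, of which 6 were higher and 1 was lower in cells with tbxta. In unlabeled RNA hes6 (2.84) and nsa2 (2.66) were higher in cells with tbxta, 2 of 1419 genes (0.141%).

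The other divisions of the cells gave few calls. The 64 cells without msgn1 had 0 higher and 4 lower genes of 1297 (0.308%) against the 488 cells with msgn1 in labeled RNA, a comparison chosen after seeing the data, among them FP102169.1 (fold 0.49). In unlabeled RNA 4 of 1419 genes (0.282%) were higher and 2 (0.141%) lower, among these pnhd at 0.21 (0.04 to 0.63). Only 2 cells lacked a mesp gene, too few for a comparison. Cells with a rule sum of 15 and more, 55 in all, had 0 higher and 5 lower genes of 762 (0.656%) against the 260 cells with a sum of 5 to 7, and the 237 cells with 8 to 14 had 0 higher and 4 lower genes of 1162 (0.344%). Median counts were 4248, 3649 and 3465.5 in cells with sums of 15 and more, 8 to 14 and 5 to 7, and median labeled shares were 44.7, 42.4 and 41.3%. These divisions were not thinned, and the part of depth in them was not tested. In unlabeled RNA both comparisons had 0 higher and 2 lower genes (0.204% and 0.153%). Lye and pfn1, a gene of the actin-binding protein profilin, were lower in both, at 0.23 and 0.28 in the cells with 15 and more and at 0.33 and 0.38 in those with 8 to 14, and sox32, an endoderm gene, was at 0.35 in the cells with 8 to 14. Across the threshold, the 195 cells with a sum of 5 or 6 and the 275 cells with 3 or 4 had medians of 3472 and 3056 counts. Between them 0 genes of 970 were higher and 1 (znf395a, 0.103%) was lower in labeled RNA, and none of 1247 differed in unlabeled RNA. The cells just outside the rule in turn had 90 higher (1.90%) and 173 lower genes (3.65%) of 4745 against cells with no rule count, led by tbx16l, FP102169.1, aplnrb, lft1 and mixl1 among the higher, with folds from 16.8 to 12.1, and in unlabeled RNA 15 higher (0.316%) and 80 lower (1.68%). These 5 higher genes were also higher in the msgn1/mesp cells, and the cells with 3 or 4 counts stand among the other cells in all comparisons above. All groups in this paragraph were made from counts of the rule genes. The shared genes and the few calls across the threshold are therefore a description and no support for the rule.

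Cells chosen by genes of other tissues were compared next. Against 164 chordamesoderm cells, chosen by at least 5 counts of noto and chrd, 48 of 1640 genes (2.93%) were higher and 27 (1.65%) lower in labeled RNA. The higher genes were led by foxc1a at 28.2 (7.68 to 234), pnhd at 23, the ventral gene eve1 at 20.3 and cxcl12a at 18.1, and included dld (13.5), ved (11.4), vox (7.58) and aldh1a2 (5.18). Gsc (0.02), nog1 (0.03), foxa2 (0.04), foxa3 (0.13), all axial genes, and xbp1 (0.17) were lower. Pcdh8 had 559 CPM in msgn1/mesp cells and 509 CPM in chordamesoderm cells, a fold of 1.10 (0.91 to 1.33), tbxta had 1052 and 1220 CPM (0.86, 0.76 to 0.98), and efnb2a reached 1.99 (1.52 to 2.63). The levels of pcdh8 and tbxta thus differed from those in all other cells but were not called different from the chordamesoderm cells. In unlabeled RNA 11 of 1696 genes (0.649%) were higher, led by pnhd (11.6), cxcl12a (8.84), ved (6.95) and vox (4.23), and insb and xbp1 were lower (0.118%).

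Against 134 endoderm cells, chosen after seeing the data by at least 5 counts of sox17 and sox32, 39 of 1525 genes (2.56%) were higher and 23 (1.51%) lower. Foxc1a (18.4), tbx16l (15.9), her7 (12), dld (7.55) and aldh1a2 (6.77) were higher. Vgll4l (0.03), cxcr4a (0.08), id3 (0.20) and gata5 (0.40) were lower. Gata5 had 213 CPM in msgn1/mesp cells and 529 CPM in endoderm cells, drl had 145 and 173 CPM (fold 0.84, 0.57 to 1.26), and snai1a had a fold of 1.00 (0.83 to 1.22). Gata5 was thus between the endoderm cells and the rest of the embryo. In unlabeled RNA 15 of 1605 genes (0.935%) were higher, led by pnhd (6.52) and hes6 (4.03), and none was lower.

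The ventral margin rule of 5 counts of eve1 and szl left 14 cells, too few to read, and cells with at least 2 such counts were used in their place, also after seeing the data. Of 373 such cells, 64 were themselves msgn1/mesp cells and were left out. Against the remaining 309 cells 61 of 1856 genes (3.29%) were higher and 17 (0.916%) lower. Ripply1 had 120 counts in msgn1/mesp cells and none in these cells, which makes it at least 22.4-fold higher at a floor of 3 counts over the group, and foxc1a (19.2), lft1 (10.6), dkk1b (9.97), foxa (9.13), elovl6 (7.67) and pcdh8 (7.54) followed. Sox19a (0.14), sox3 (0.16), cxcr4b (0.22) and id1 (0.38) were lower. The folds of sox19a and sox3 against all other cells were about the same (0.14 and 0.17). Whether these 309 cells were cells of the ventral margin was not tested, and the differences may not be those between paraxial and ventral mesoderm. Cdx4 had 357 CPM in msgn1/mesp cells and 739 CPM in these cells (fold 0.48), dld had 277 and 244 CPM (1.13, 0.91 to 1.42), and her7 had a fold of 1.08 (0.88 to 1.33). The intervals of her7 and dld included equal levels. In unlabeled RNA 6 of 1879 genes (0.319%) were higher, led by cxcl12a (4.06) and pnhd (2.85), and 4 (0.213%) lower, the germ cell genes ca15b (0.11) and nanos3 (0.13) among them. Against 61 neuroectoderm cells, chosen by sox2, sox3 and otx2b, 73 of 1488 genes (4.91%) were higher and 21 (1.41%) lower, with pcdh8 (39.6), wnt11f2 (36.1) and aldh1a2 (18.4) among the higher and sox19a (0.10) and cxcr4b (0.16) among the lower. In unlabeled RNA 10 of 1542 genes (0.649%) were higher and 9 (0.584%) lower.

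**Figure D5:**
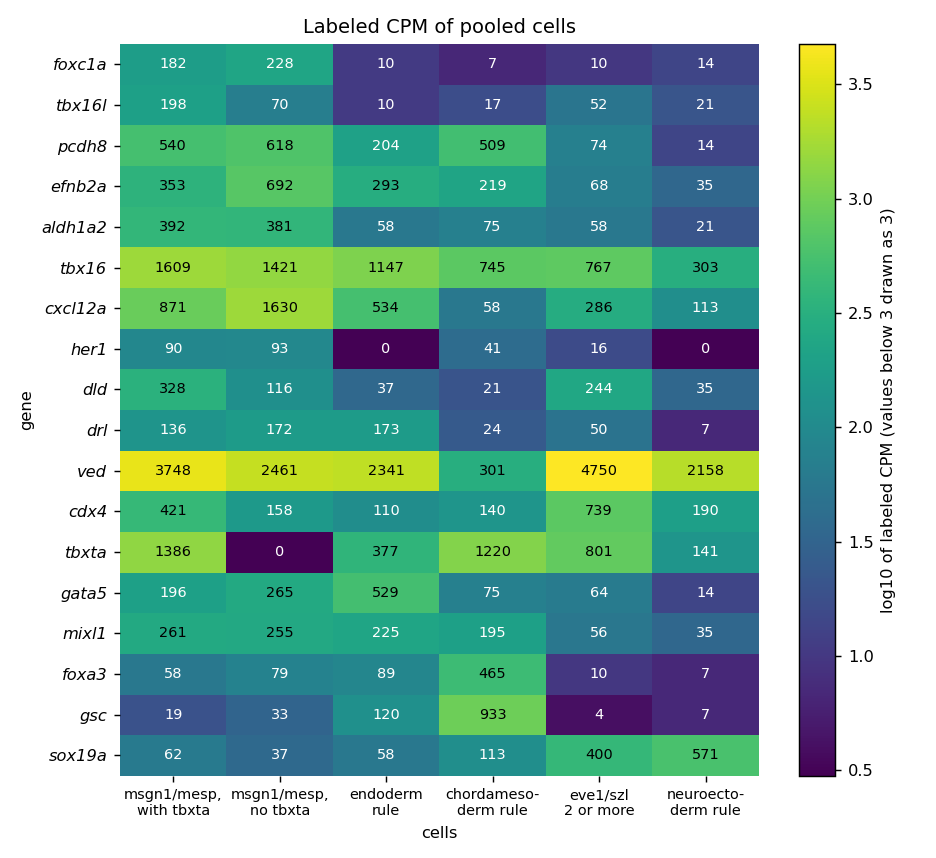
Labeled level (CPM, color on a log10 scale, values printed in the cells of the map) of 18 genes in msgn1/mesp cells with and without tbxta and in the comparison cells. Foxc1a and aldh1a2 are high in the msgn1/mesp columns (aldh1a2 at 392 and 381 CPM, against 75 CPM or less in the others), gsc is high in the chordamesoderm cells at 933 CPM, and the absence of tbxta in the second column follows from how it was chosen.

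Across all 6847 cells, the genes whose labeled level followed that of msgn1 most closely, apart from the rule genes, were pcdh8 (Pearson r = 0.385 on log2 of labeled counts per 10000 plus 1), FP102169.1 (0.359), efnb2a (0.354), aldh1a2 (0.348), snai1a (0.332), cxcl12a (0.329), fscn1a (0.316), pnhd (0.314), foxc1a (0.304) and lft1 (0.299). Fscn1a encodes an actin-bundling protein. Within the 552 msgn1/mesp cells the same genes had values between -0.05 and 0.12, which cannot be set against those over all cells, since the cells were chosen by msgn1 and mesp counts. All points share 1 library and the depth of each cell enters both genes. Msgn1 was also 1 of the rule genes that chose the cells, so these values are a description and no support for the calls above.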

How the data were processed

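The single-cell matrices hold UMI counts that the authors made with Cell Ranger 3.0.2 (GRCz11), a division of molecules into labeled and unlabeled by T-to-C changes, and a second mapping with STARsolo 2.7.0f, and they were deposited without normalization. A new molecule with few converted bases counts as unlabeled, so that the unlabeled counts hold some new RNA. The tomo-seq files hold expected counts, which the authors corrected for molecules that drew the same UMI, mapped with STAR 2.5.3a to GRCz10. All sections of an embryo were summed and scaled to CPM without the spike-ins, and genes were matched by Ensembl ID. Frog files were not used.

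Both matrices have the same genes (32520) and the same list of possible barcodes, and all cells come from 1 library. Symbols were brought up to date for 29201 IDs. Cells were not clustered and no doublet caller was run. Alternatives without the cells of highest counts and without cells that met a second rule were computed instead. Counts were summed over cells and scaled without the rule genes. The calls (at least 100 counts over all cells, 2-fold, exact Poisson 95% intervals apart) are a description and no test, and intervals and floors cover counting error only. Shares have Clopper-Pearson intervals, after thinning to 800 labeled counts. The enveloping layer cells, 2% of all cells in number, were taken from the other cells only, as those with the largest share of that marker list. Leaving them out was an alternative chosen after seeing the data. The scripts were tested on simulated data. The members, lists and rules were chosen with earlier results of these data known. Named were the 20 largest and 10 smallest labeled folds, 10 of each in unlabeled RNA, the members of 13 pathway lists that were called with up to 4 that were not, and the 10 genes most like msgn1. Some genes that this rule names, and 1 of the lists, are not reported here. Genes named outside this rule were chosen after their values were seen. Python 3.11.15, numpy 2.4.6, pandas 2.3.3, scipy 1.17.1 and matplotlib 3.10.9 were used, and edgeR 4.0.16 in R 4.3.3 gave a scaling factor (TMM) for 1 alternative. No per-sample value column was left without a sample.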

Additional observations from a re-analysis of the deposited data

Results flagged for a closer look

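Mespaa, 1 of the rule genes, had counts in the tomo-seq data of one-cell stage embryos, which entered none of the comparisons between cells. Its mean level was 2.093 CPM (SD 1.60, n = 3), from 9, 19 and 124 expected counts in the 3 embryos, each above the limit that a count of 0 allows. The values differed widely between the embryos, and their source was not tested.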

How the results depend on the processing

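In labeled RNA the 121 higher genes became 40 with at least 500 counts of a gene, 188 at 1.5-fold and 67 at 3-fold, and the 236 lower genes became 65 with at least 500 counts and 108 without the enveloping layer cells. In unlabeled RNA the 19 higher genes became 69 with at least 20 counts, 2 with at least 500 counts, 44 at 1.5-fold, 10 at 3-fold and 40 with a rule sum of at least 10, and the 141 lower genes became 15 with at least 500 counts, 268 at 1.5-fold and 67 at 3-fold. Some settings changed which genes were lower more than how many. With a rule sum of at least 10, 142 genes were lower in unlabeled RNA, of which 50 were among the 141. These numbers were 121 and 80 with a rule sum of at least 3, and 149 and 97 with the mean of per-cell CPM. They were 193 and 95 with the same number of cells chosen by the share of the rule genes in their counts. Without the 5% of cells with the highest counts they were 99 and 68. In labeled RNA 175 genes were lower without those cells, of which 150 were among the 236. Of the 121 higher genes in labeled RNA, 101 stayed higher with a rule sum of at least 10. A higher minimum tests fewer genes and another fold moves the threshold, while for the other settings the cause was not tested. Of 816 folds of 51 gene and RNA pairs under 16 settings, 744 stayed within the 95% counting interval of the main value, 70 moved outside it and 2 changed direction, the unlabeled folds of si:rp71-1n18.1 (1.19) and zgc:193505 (1.012), both without the enveloping layer cells. The 16 settings include other minimum counts and other folds for a call, which leave every fold unchanged by construction. Folds under those settings are among the 744, so that number overstates how stable the folds were. The labeled share of the median msgn1/mesp cell was 41.45% when pooled and 41.87% in cells of a common depth. With a rule sum of at least 10 the labeled share of counts was 86.13% for aldh1a2 and 87.18% for efnb2a. The share of msgn1/mesp cells with labeled aldh1a2 was 45.29% without thinning, 13.59% at 400 counts and 38.64% at 1200 counts, and with efnb2a 47.64%, 16.49% and 39.14%, so that these shares depend on depth. With thinned counts, cells with tbxta had 1 lower gene in labeled and 0 higher genes in unlabeled RNA against cells without, and cells without msgn1 had 2 higher genes in labeled RNA and 0 higher and 4 lower genes in unlabeled RNA against cells with msgn1. No paired analysis was possible because the cells come from 1 library and the one-cell embryos were compared with no other group.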
